A study of Homo sapiens with 12 samples.

Results

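The erlotinib time course in NCI-H1975 cells comprised 5 of the 12 arrays of the series. These were 4 arrays of cells kept in 1 µM erlotinib for 6, 12, 24 or 48 h, and 1 array of untreated cells. Members were chosen by treatment and time as given in the sample labels. NCI-H1975, or H1975, is a human lung adenocarcinoma line. Its EGFR carries the L858R and T790M substitutions per the labels. All groups were this single line grown in DMEM with 5% fetal bovine serum. The untreated array carries no time in its label. The other arrays of the series came from the same line in 3 µM quinacrine (3 arrays) or in 1 µM erlotinib with 3 µM quinacrine (4 arrays, called the combination below). Each treatment and time had 1 array, so no condition was replicated, and the small number of arrays limits the precision of every estimate. The labels do not state whether the arrays stand for separate cultures. The p-values then cover only the scatter among these arrays, which may be technical.

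EGFR is a receptor tyrosine kinase that signals through the RAS-ERK and PI3K-AKT cascades and drives growth in many lung adenocarcinomas. Erlotinib is a reversible inhibitor that competes with ATP at the EGFR kinase. The L858R substitution activates the kinase and sensitises it to such inhibitors, whereas T790M in the gatekeeper position raises ATP affinity and is known for resistance to erlotinib. ERK activity is commonly read from early response genes and from feedback inhibitors such as the dual-specificity phosphatases and Sprouty proteins.

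Levels are log2 intensities, so 1 unit is a 2-fold difference. Of 22395 named genes, 5820 had a mean of at least 5 over the 12 arrays and were kept, 127 of which averaged under 5 over the 5 arrays of the course. The erlotinib 12 h array stood apart from the other arrays of the course. Its interquartile range over all rows was 2.26, against 2.48 to 2.71 on the other erlotinib arrays and 2.56 on the untreated array. It had 8193 rows at 5 or more, against 8704 to 8959 on the other erlotinib arrays and 8692 on the untreated array. The epithelial markers EPCAM (8.50 to 8.60 on the erlotinib arrays, 8.52 untreated) and CDH1 (10.14 to 10.30 on the erlotinib arrays, 10.19 untreated) were well above the filter. KRT7 and KRT19 also passed, while KRT8 (2.13 to 3.33 on the erlotinib arrays, 2.85 untreated) and KRT18 (4.52 to 5.01 on the erlotinib arrays, 4.47 untreated) did not. Of 12 fibroblast and endothelial markers and 7 erythroid and neuronal markers in the table, 0 passed the filter.

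Genes far from the untreated level became more numerous late in the course. At 6 h, 3 genes (0.0515% of 5820) were at least 2-fold higher than on the untreated array and 2 (0.0344%) at least 2-fold lower. At 12 h the counts were 7 higher (0.12%) and 50 lower (0.859%). At 24 h they were 21 higher (0.361%) and 20 lower (0.344%), and at 48 h 79 higher (1.36%) and 37 lower (0.636%). Over the 4 times in order, the median difference of all genes was 0.06, -0.06, 0.03 and 0.06. These are counts from single arrays that share 1 untreated array, so they have no replicate check. The 50 lower genes at 12 h stand on the array with the narrow range. ZNF28, a zinc finger gene, was at 3.49 at 12 h, but at 5.73, 5.57 and 5.66 at 6, 24 and 48 h, against 5.77 untreated. Requiring a mean of at least 6 left 9 genes at least 2-fold lower at 12 h, and 28 higher and 20 lower at 48 h.

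**Figure D1:**
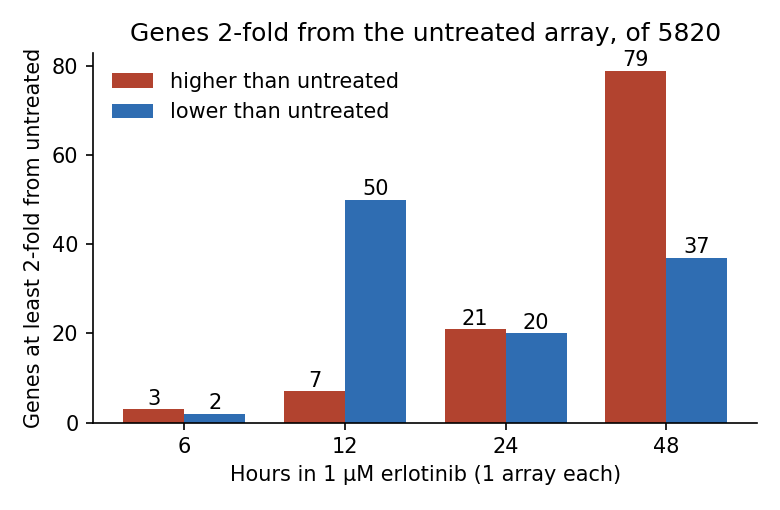
Number of the 5820 genes kept (vertical axis) that were at least 2-fold higher (red) or lower (blue) on each erlotinib array than on the untreated array, by hours in erlotinib (horizontal axis). The higher counts go 3, 7, 21 and 79 over the 4 times, and the lower counts have a peak of 50 at 12 h.

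The trend was then estimated as a slope, in log2 units per doubling of time, through the 4 erlotinib arrays. The smallest p-values for a negative slope included those of CCN1, GLIPR1, SNAI2 and THBS1, and for a positive slope those of GDF15 and CD79A. By limma, 0 of 5820 genes (0%) passed an adjusted p of 0.05 in either direction, with a smallest adjusted p of 0.31. At an unadjusted p under 0.05, 216 genes (3.71%) had a positive and 169 (2.9%) a negative slope, 385 in all against 291 that a uniform p would give. The median 95% interval reached 0.177 to either side of the slope, and for 95.8% of genes the whole interval lay within 0.5 of 0. The residual here is the departure of 4 times from a straight line, with 2 residual degrees of freedom. Without the 12 h array, 2 genes passed with a positive slope (GDF15 and DHRS3, both with a limma adjusted p of 0.00238) and 2 with a negative slope (GLIPR1 at 0.00238 and CCN1 at 0.026). The named genes below are therefore given by their values, and slopes are described, not called.

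CCN1 encodes CYR61, a secreted matricellular protein and a classical target of the YAP and TEAD transcription factors. Its level was 9.04, 8.42, 7.85 and 7.28 at 6, 12, 24 and 48 h of erlotinib, against 9.11 in untreated cells. The slope was -0.59 ± 0.06 (SE, 4 arrays), with an unadjusted p of 5.89e-05 and a limma adjusted p of 0.31. Every erlotinib array was below the untreated one, and the 4 times were in strict descending order, as they were for 300 of all genes (5.15%), beside 148 (2.54%) in strict ascending order. Across the alternatives on the log2 time scale within the erlotinib arm, its slope ranged between -0.60 and -0.57.

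GLIPR1, a secreted or membrane-bound member of the CAP protein family, stood at 8.41 and 8.07 at 6 and 12 h and at 6.49 and 5.85 at 24 and 48 h, against 8.07 untreated. Its slope was -0.93 ± 0.11 (limma adjusted p = 0.31), and only the 24 and 48 h arrays lay below the untreated level. SNAI2, the mesenchymal transcription factor Slug, was at 8.25, 7.85, 7.37 and 6.78, against 8.21 untreated, with a slope of -0.49 ± 0.06 (limma adjusted p = 0.40). THBS1, the matricellular glycoprotein thrombospondin-1, was at 9.05, 8.65, 8.29 and 7.60, against 9.13 untreated. In both genes the 6 h array was within 0.10 of the untreated one and the 48 h array was the lowest. F3, which encodes tissue factor, the cell-surface initiator of coagulation, was at 6.85, 6.55, 5.89 and 5.63, against 6.96 untreated. DSEL, a dermatan sulfate epimerase, was at 6.67, 6.20, 5.30 and 5.16, against 6.60 untreated. SEMA7A, a membrane-anchored semaphorin, was at 8.08, 7.87, 7.41 and 6.70, against 8.19 untreated. In these 3 genes the 24 and 48 h values were below all earlier ones.

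In the other direction, GDF15, a stress-induced cytokine of the TGF-beta superfamily and a p53 target, was at 5.57, 5.58, 7.17 and 8.20, against 4.99 untreated. Its slope was 0.95 ± 0.14 (limma adjusted p = 0.403), and all 4 arrays exceeded the untreated one. It was furthest above the untreated level of all 5820 genes at 48 h, by 3.21. DHRS3, a retinaldehyde reductase, was at 4.68, 4.33, 6.52 and 7.45, against 4.48 untreated (slope 1.05 ± 0.20, limma adjusted p = 0.435). In both genes the 24 and 48 h arrays were above all others. Of 13 p53 target genes kept, GDF15 among them, 8 had a slope above 0 and 2 of these an unadjusted p under 0.05 (3.71% of all genes). Without the 12 h array or without the 48 h array 6 had a slope above 0. NRIP1, a nuclear receptor corepressor, was at 7.18, 7.40, 7.92 and 8.34, against 6.96 untreated. PELI1, an E3 ubiquitin ligase of innate immune signalling, was at 4.68, 4.64, 5.47 and 6.25, against 4.71 untreated. ACP3, prostatic acid phosphatase, was at 4.65, 4.82, 5.41 and 5.79, against 4.60 untreated. The 48 h array was the highest for each of these 3 genes.

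CD79A, a component of the B cell antigen receptor, was at 7.30, 7.47, 8.13 and 9.03, against 7.60 untreated, a slope of 0.58 ± 0.09 (limma adjusted p = 0.403). Of 17 immune markers in the table, 3 passed the filter (CD79A, CD68 and CSF1R). The leukocyte marker PTPRC was at 0.72 to 1.21 on the erlotinib arrays and 0.79 untreated, and the B cell marker MS4A1 at 0.93 at 48 h, when CD79A was highest, against 0.86 untreated. These values are below the median of all rows, which was 1.41 to 1.57 on the erlotinib arrays and 1.48 untreated. In a bulk culture, fewer cells of a type and less RNA per cell cannot be told apart, for this and all other genes. Whether the CD79A probe set reads this transcript alone was not tested.

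**Figure D2:**
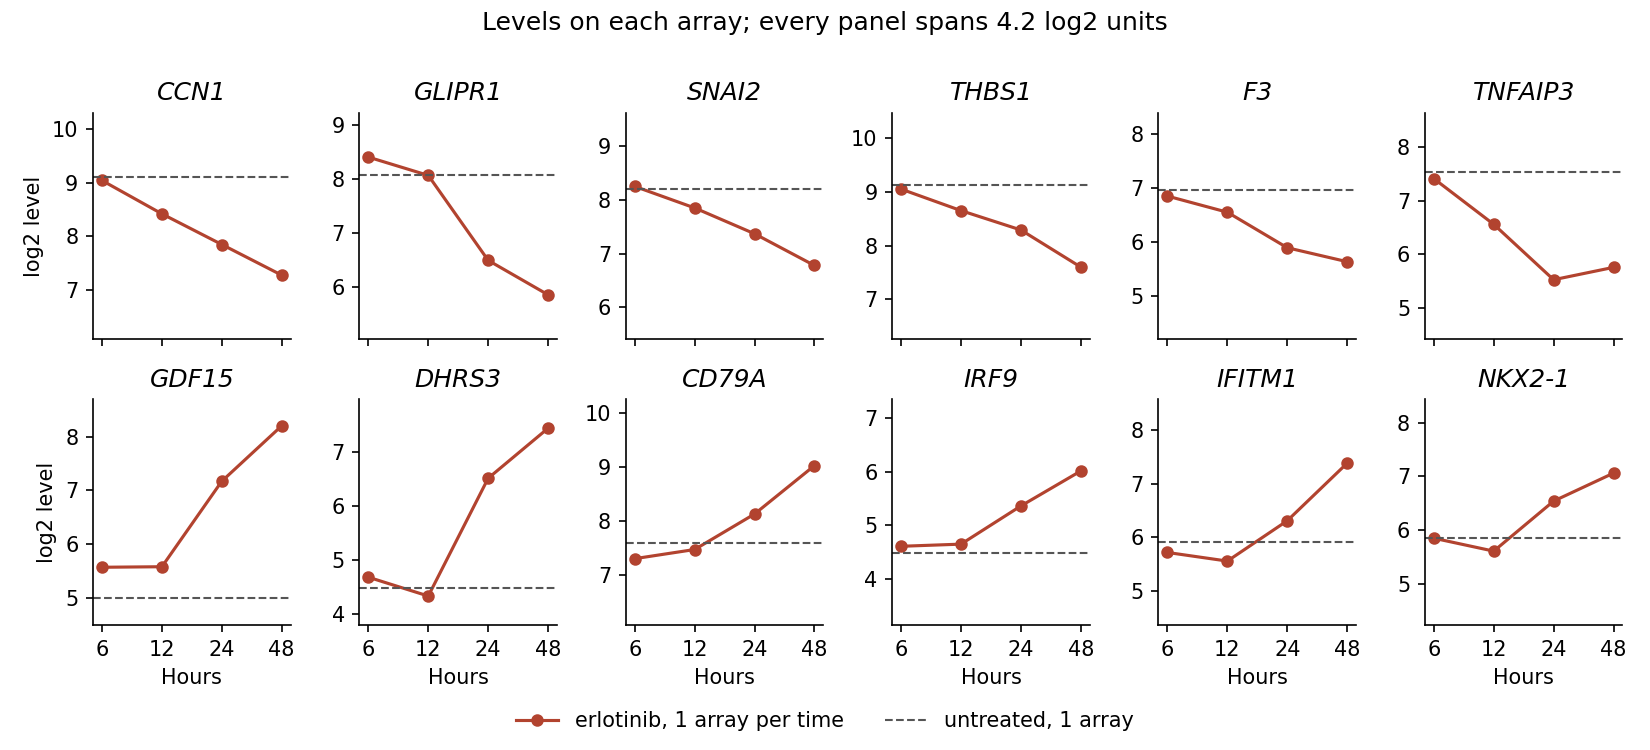
log2 level (vertical axes) of 12 genes on the 4 erlotinib arrays (red points) by hours (horizontal axes), with the untreated array as a dashed line. CCN1, GLIPR1, SNAI2, THBS1, F3 and TNFAIP3 lie below the dashed line at 24 and 48 h, and GDF15, DHRS3, CD79A, IRF9, IFITM1 and NKX2-1 lie above it.

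The gene lists were read in the same way, by counts beside those of all genes kept, of which 3032 had a slope above 0 and 2761 below 0, with a median of 0.005. Without the 6 h array that median was 0.06, without the 12 h array -0.007 and without the 48 h array -0.025. Mesenchymal markers were below the untreated level at 48 h in 8 of 8 members kept, beside 2379 of the 5820 genes. Their median slope was -0.193, and 4 of 8 had a negative slope at an unadjusted p under 0.05 (2.9% of all genes). The members with the largest differences were SNAI2 and THBS1, given above, and VIM. VIM, the intermediate filament vimentin, was at 5.79, 5.49, 5.54 and 4.53, against 5.59 untreated, so that the 48 h array alone was far from the others. The median slope of the list was -0.313 without the 6 h array, -0.179 without the 12 h array and -0.133 without the 48 h array. CDH2, the mesenchymal cadherin, lay below the filter at 1.04 to 1.48 on the erlotinib arrays and 1.32 untreated.

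Of 17 YAP and TEAD target genes, 14 had a negative slope, with a list median of -0.144. Of these, 5 had an unadjusted p under 0.05 (2.9% of all genes). CCN2, which encodes the matricellular connective tissue growth factor CTGF, was at 5.31, 4.56, 4.76 and 4.55, against 5.57 untreated. AXL, a receptor tyrosine kinase linked to bypass of EGFR inhibition, was at 8.16, 7.86, 8.25 and 7.21, against 7.98 untreated. CCN2 was below the untreated level on all 4 arrays, while AXL was below it on the 12 and 48 h arrays. CCN2 was the 1 gene of this list with a mean under 5 over the 5 arrays of the course. It was kept through its levels in the arms with quinacrine. The list median was -0.05 without the 6 h array and -0.149 without the 12 h array. Actin and SRF-MRTF targets, genes of the contractile cytoskeleton, had 13 of 14 slopes below 0 and a median of -0.128. A negative slope at an unadjusted p under 0.05 was found for 5 of them (2.9% of all genes). That median was -0.12 without the 12 h array and -0.088 without the 48 h array. ACTB, cytoplasmic beta-actin, was at 6.49, 5.94, 6.26 and 5.62, against 6.78 untreated, and TUBB6, a beta-tubulin, at 6.70, 6.81, 6.68 and 5.74, against 6.85 untreated. All 4 erlotinib arrays were below the untreated array in both genes.

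The readouts closest to EGFR were mixed. EGFR itself was at 8.46, 8.25, 8.24 and 8.18, against 8.63 untreated, and EREG, which encodes the EGFR ligand epiregulin, at 7.59, 6.74, 7.23 and 7.17, against 7.92 untreated. Both were below the untreated level on all 4 arrays, and EREG was the 1 EGFR ligand of 7 in the table that passed the filter. ERBB3, a kinase-impaired partner of EGFR, was at 5.75, 5.89, 5.99 and 6.78, against 6.00 untreated, above the untreated array at 48 h alone. MET, the hepatocyte growth factor receptor, differed from its untreated level of 9.62 by at most 0.11, with 9.51, 9.65, 9.51 and 9.71 on the erlotinib arrays. Of 14 EGFR pathway adaptors and kinases kept, 8 had a slope above 0 and 5 below, with a median of 0.01. Their 48 h differences ranged between -0.17 and 0.30, and 0 had a slope at an unadjusted limma p under 0.05. GRB7, an adaptor that binds ERBB receptors, was outside that list and was named for its difference at 24 h. It was at 4.73, 4.58, 5.69 and 5.99, against 4.37 untreated.

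Of 17 ERK-induced transcription factors and early genes, 13 had a negative slope (median -0.076), and 5 of them an unadjusted p under 0.05 (2.9% of all genes). JUN, an AP-1 subunit, was at 7.38, 7.12, 6.00 and 6.32, against 7.24 untreated. EGR1, an immediate early zinc finger factor, was at 5.75, 5.37, 5.30 and 5.14, against 5.78 untreated. IER3, an immediate early stress gene, was at 8.17, 7.70, 7.73 and 7.21, against 8.12 untreated. The 24 and 48 h arrays were below the untreated one in all 3 genes. FOSL1, another AP-1 subunit, was at 9.61, 9.30 and 9.50 at 6, 12 and 24 h, against 9.62 untreated, and its 48 h difference from untreated was -0.62. MYC was at 8.20 at 6 h and 7.73 at 48 h, against 8.31 untreated. The list's median slope was 0.005 without the 6 h array, with 9 members above 0 and 8 below, and -0.126 without the 12 h array, with 2 above and 14 below.

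The ERK feedback inhibitors had no common direction, with 4 of 8 slopes on each side of 0. At 48 h, 2 of 8 were above the untreated level and 5 below, with differences between -1.15 and 0.75. DUSP1, a phosphatase of MAP kinases, was at 7.33, 6.47, 6.65 and 6.44, against 7.59 untreated. SPRY4, a Sprouty inhibitor of RAS-ERK signalling, was at 5.23, 4.24 and 4.56 at 6, 12 and 24 h and at 5.55 at 48 h, against 5.55 untreated. DUSP6, the ERK-specific phosphatase often used as a readout, lay below the filter at 2.49, 2.31, 2.62 and 3.28, against 2.16 untreated. ETV5, SPRY2 and DUSP4 also lay below the filter, at 4.64, 5.04 and 3.36 at 48 h, against 3.88, 4.65 and 2.71 untreated. DUSP6 and these genes were thus above the untreated level at 48 h. CCND1, the G1 cyclin D1, was at 7.65, 7.27, 7.42 and 7.51, against 7.88 untreated.

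NF-kappaB, named in the title of the study with FACT and the cell cycle, is a family of transcription factors held in the cytoplasm by IkappaB proteins. Of 12 target genes kept, 7 had a negative slope and 5 a positive one, with a median of -0.045. Of the negative slopes, 2 had an unadjusted p under 0.05 (2.9% of all genes). Averaged over the 5 arrays of the course, 2 of the 12 genes were under 5. At 48 h, 6 of 12 were above the untreated level, beside 57.8% of all genes, with differences between -1.77 and 0.41. TNFAIP3, the ubiquitin-editing inhibitor A20, was at 7.41, 6.56, 5.53 and 5.76, against 7.53 untreated. NFKB2, which encodes p100, the precursor of the p52 subunit, was at 6.87, 6.54, 6.27 and 5.75, against 6.90 untreated. Both were below the untreated level on all 4 arrays. NFKBIA, which encodes IkappaB-alpha, was at 8.86, 8.42, 8.42 and 8.68, against 8.94 untreated, and the adhesion molecule ICAM1 at 7.41, 6.75, 6.74 and 7.12, against 7.64 untreated. NFKBIA and ICAM1 were lowest at 12 and 24 h and closer to the untreated level at 48 h. The list's median slope was 0.152 without the 6 h array, on the other side of 0, -0.073 without the 12 h array and -0.165 without the 48 h array.

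The FACT subunits SUPT16H and SSRP1, which together form a histone chaperone, stayed within 0.32 of their untreated levels. SUPT16H was at 8.61, 8.54, 8.52 and 8.42, against 8.54 untreated, and SSRP1 at 8.34, 7.99, 8.33 and 8.21, against 8.02 untreated. Of 44 G1/S and DNA replication genes, 18 had a slope above 0 and 25 below, with a median of -0.009 (-0.018 to -0.005 without single erlotinib arrays). RRM2, a ribonucleotide reductase subunit, was at 8.17, 8.03, 7.97 and 7.54, against 8.17 untreated. It was the 1 member with an unadjusted p under 0.05, beside 2.9% of all genes with a negative slope at that p. Of 46 G2/M and mitosis genes, 29 had a slope above 0 and 17 below (median 0.029, and 0.015 to 0.035 without single erlotinib arrays), and 0 had a limma adjusted or an unadjusted p under 0.05. MKI67, the proliferation marker Ki-67, was at 8.83, 8.69, 8.73 and 8.93, against 8.73 untreated, and CDK1, the mitotic kinase, at 5.59, 5.68, 5.56 and 5.74, against 5.44 untreated.

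Ribosome biogenesis factors, which process and assemble ribosomal RNA in the nucleolus, mostly shared a direction late in the course. At 48 h, 32 of 33 members were below the untreated level, beside 2379 of all 5820 genes, and the differences ranged between -0.92 and 0.45. The median slope was -0.087, with 31 of 33 members below 0. Only 1 member, UTP15, had a negative slope at an unadjusted p under 0.05 (2.9% of all genes). UTP15, a small subunit processome factor, was at 6.75, 6.74, 6.27 and 6.20, against 6.53 untreated. RRS1 was at 8.43, 8.49, 8.15 and 8.01, against 8.46 untreated, and EIF6, an anti-association factor of the large subunit, at 8.93, 8.70, 8.72 and 8.43, against 9.03 untreated. In these 3 genes the 48 h array was the lowest. The median slope was -0.14 without the 6 h array, with 28 of 33 below 0, and -0.078 without the 12 h array, with 33 of 33 below 0. Without the 48 h array it was -0.04, with 23 of 33 below 0.

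Interferon response genes were mostly higher late in the course. Interferons act through a transcription factor complex that contains IRF9 and binds the interferon-stimulated response element (ISRE). To show that element, the promoter windows of IFI6 and IFITM1 follow, with matches to its core (GAAA, any 2 bases, GAAA) on either strand in capitals. The windows run 250 bases upstream to 50 bases downstream of the gene start and are from RefSeq, build GRCh38.p14 (IFI6: chr1:27672143-27672442, minus strand; IFITM1: chr11:313790-314089, plus strand).
IFI6: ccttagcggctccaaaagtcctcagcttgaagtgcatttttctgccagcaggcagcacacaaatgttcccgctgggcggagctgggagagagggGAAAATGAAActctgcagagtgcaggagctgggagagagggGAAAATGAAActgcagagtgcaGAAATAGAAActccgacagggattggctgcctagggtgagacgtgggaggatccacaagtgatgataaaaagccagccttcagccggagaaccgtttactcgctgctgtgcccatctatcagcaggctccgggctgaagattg
IFITM1: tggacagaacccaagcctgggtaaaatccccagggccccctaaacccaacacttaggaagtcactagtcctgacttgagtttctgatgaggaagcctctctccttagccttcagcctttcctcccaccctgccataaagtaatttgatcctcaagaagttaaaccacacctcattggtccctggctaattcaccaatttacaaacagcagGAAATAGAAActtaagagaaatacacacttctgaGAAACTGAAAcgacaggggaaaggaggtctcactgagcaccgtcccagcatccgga
IFI6 held 3 matches and IFITM1 held 2. Of the 23 interferon response genes kept, 19 had a window, and 13 of these held the core, compared with 2.79% of the windows of 4805 genes kept. A match describes letters only and shows no binding.

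At 48 h all 23 interferon response genes kept were above the untreated level, by 0.02 to 1.53, beside 57.8% of the 5820 genes. Their median difference was 0.67, and 6 of 23 were at least 2-fold higher (1.36% of all genes). Of these 6, OAS2, IFIH1 and IFI44L averaged under 5 over the arrays of the course. At 6 h, 14 of 23 were above the untreated level. IRF9, the DNA-binding part of that complex, was at 4.61, 4.65, 5.36 and 6.01, against 4.48 untreated, with a slope of 0.49 ± 0.09 (limma adjusted p = 0.426). IFITM1, a membrane protein that restricts viral entry, was at 5.72, 5.56, 6.31 and 7.38, against 5.91 untreated. IFI6 was at 8.41, 8.65, 8.76 and 9.31, against 8.51 untreated. These 3 genes had their highest value at 48 h, and the 24 h value was above the untreated level in each. OAS2, an oligoadenylate synthetase that senses double-stranded RNA, was at 4.47, 4.83, 4.42 and 5.81, against 4.49 untreated. BST2, the virion-retaining protein tetherin, was at 5.54, 5.17, 5.58 and 6.45, against 5.24 untreated. IFIH1, the RNA sensor MDA5, was at 4.50, 4.36, 4.83 and 5.10, against 4.06 untreated. IFIT1, a widely used interferon readout, was at 5.01, 5.54, 5.07 and 5.11, against 4.81 untreated, and had no late maximum.

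The list's median slope was 0.173, with 22 of 23 members above 0, and 11 members had a positive slope at an unadjusted p under 0.05 (3.71% of all genes). Leaving out the 12 h array gave 0.155, and leaving out the 48 h array 0.095 with 19 of 23 above 0. Of the 23 genes, 4 had a mean under 5 over the 5 arrays of the course, OAS2, IFIH1 and IFI44L among them. They were kept through higher levels in the arms with quinacrine. In those arms the list's median slope was 0.79 for the combination and 0.93 for quinacrine. Of 11 antigen presentation genes, 10 were above the untreated level at 48 h, beside 57.8% of all genes. Their median difference was only 0.11, beside 0.06 for all genes, and 2 were at least 2-fold higher. HLA-DRA, an MHC class II chain, was at 5.79, 5.50, 6.04 and 7.02, against 5.80 untreated, and its chaperone CD74 at 6.27, 6.00, 6.54 and 7.15, against 5.96 untreated.

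**Figure D3:**
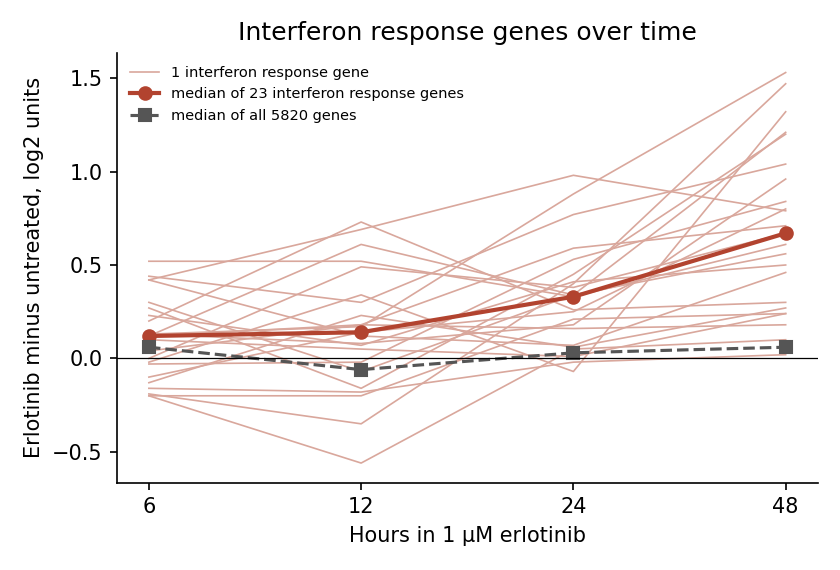
Difference from the untreated array in log2 units (vertical axis) by hours in erlotinib (horizontal axis) for each of 23 interferon response genes (thin lines), their median (red) and the median of all 5820 genes (grey squares). The list median is 0.33 at 24 h and 0.67 at 48 h, while that of all genes is 0.03 and 0.06.

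Of 26 lung epithelial differentiation genes in the table, 5 passed the filter, and 4 of these were above the untreated level at 48 h, beside 57.8% of all genes. The differences at 48 h ranged between -0.14 and 1.84. NKX2-1, the lineage transcription factor TTF-1 of the lung and thyroid, was at 5.85, 5.61, 6.54 and 7.06, against 5.86 untreated. SFTA3, a surfactant-associated gene that neighbours NKX2-1, was at 4.76, 4.45, 5.40 and 6.39, against 4.55 untreated. For both, the 24 and 48 h arrays were above the untreated one. The median slope of the 5 genes kept was 0.244, and 3 had a positive slope at an unadjusted p under 0.05 (3.71% of all genes). Without single erlotinib arrays that median was 0.17 (without 48 h) to 0.35 (without 6 h). The surfactant genes below the filter were not higher at 48 h: SFTPB was at 1.86, against 1.87 untreated, SFTPC at 1.76, against 1.85 untreated, and SFTPD at 1.69, against 2.02 untreated. Other lung genes below the filter were higher at 48 h. NAPSA was at 1.97, 3.30, 2.48 and 4.08, against 2.81 untreated, and SLC34A2 at 1.75, 1.83, 1.27 and 2.69, against 1.97 untreated. Of 17 epithelial markers, 12 had a slope above 0, with a median of 0.054. Without the 48 h array the median was 0.005, with 9 above 0 and 7 below. KRT7, a keratin of simple epithelia, was at 7.35, 7.37, 7.36 and 7.10, against 7.37 untreated. GRHL2, an epithelial transcription factor, was at 6.94, 7.07, 7.41 and 7.52, against 6.70 untreated, and CLDN3, a tight junction claudin, at 6.82, 6.37, 7.39 and 7.77, against 6.81 untreated. None of the 17 markers was at least 2-fold from the untreated level at any time. PRSS8 and LIPH were outside this list and were named for being among the 6 genes furthest above the untreated level at 48 h. PRSS8, the epithelial serine protease prostasin, was at 5.07, 5.10, 5.30 and 6.81, against 4.76 untreated. LIPH, a membrane-bound phospholipase, was at 5.99, 5.71, 5.96 and 7.19, against 5.38 untreated. For PRSS8 and LIPH the 48 h array alone was far above the others, and the slope of LIPH was 0.39 with that array and -0.02 without it.

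Lysosomal and lipid genes had mostly positive slopes. Of 23 lysosome genes, 20 were above the untreated level at 48 h, beside 57.8% of all genes. Their median slope was 0.102, and 3 had a positive slope at an unadjusted p under 0.05 (3.71% of all genes). GPNMB, a glycoprotein of melanosomes and lysosomes, was at 6.17, 6.06, 6.46 and 7.54, against 6.35 untreated, and the protease CTSS at 6.48, 6.43, 6.27 and 7.34, against 6.32 untreated. In both genes the 48 h array alone was at least 2-fold above the untreated one. The list's median slope was 0.083 without the 12 h array and 0.025 without the 48 h array, with 14 members above 0 and 8 below. Of 12 fatty acid synthesis genes, 9 had a slope above 0 (median 0.133), 5 of them at an unadjusted p under 0.05 (3.71% of all genes). A negative slope at that p was found for 1 member (2.9% of all genes). The median was 0.252 without the 6 h array, 0.113 without the 12 h array and 0.045 without the 48 h array, with 7 of 12 above 0. SREBF1, the transcription factor that drives lipogenic genes, was at 4.91, 4.86, 5.55 and 6.08, against 4.93 untreated. FBP1, the gluconeogenic fructose bisphosphatase, was outside these lists and was named for its difference at 48 h. It was at 4.80, 4.51, 4.87 and 6.42, against 4.41 untreated.

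**Figure D4:**
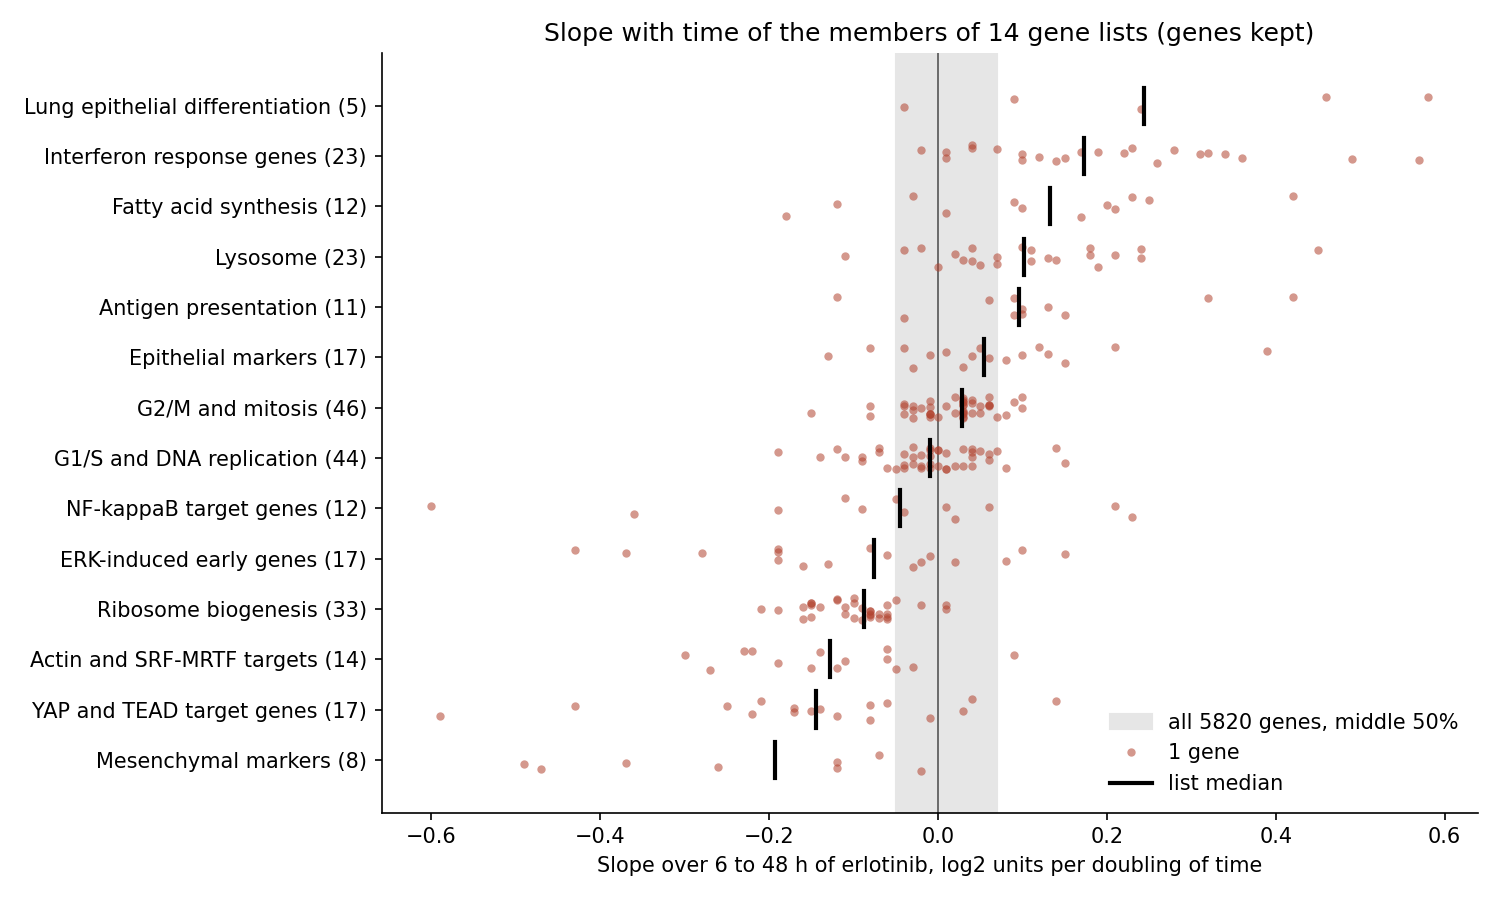
Slope over the 4 erlotinib times in log2 units per doubling of time (horizontal axis) for each gene (points) of 14 lists (rows, number kept in parentheses), with the list median as a black bar and the middle 50% of all 5820 genes in grey. The medians run between 0.244 for lung epithelial differentiation and -0.193 for mesenchymal markers.

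The average erlotinib level at the mean log2 time was also compared with the untreated array. By limma, 0 of 5820 genes (0%) passed in either direction, the smallest adjusted p was 0.994, and 148 genes (2.54%) were higher and 99 (1.7%) lower at an unadjusted p under 0.05. Without the 12 h array, GDF15 (limma adjusted p = 0.0113) and DHRS3 (limma adjusted p = 0.0131) passed on the higher side. The median 95% interval reached 0.442 to either side, and for 92.6% of genes the whole interval lay within 1 log2 unit of 0. This test takes the scatter of the erlotinib arrays about their line as that of the single untreated array. REPIN1, a zinc finger protein, averaged 0.87 ± 0.16 above the untreated level (SE), with 6.43, 6.80, 7.15 and 7.35, against 6.06 untreated. MLPH, melanophilin, an effector of RAB27 in vesicle transport, averaged 0.97 ± 0.20 above, with 4.90, 5.01, 5.75 and 5.82, against 4.40 untreated. TXLNA, a syntaxin-binding protein, was at 6.02, 5.94, 6.01 and 5.92, against 5.12 untreated, with no trend over the 4 times. It was at 5.68 to 6.29 on the arrays with quinacrine. A change by 6 h of erlotinib and a low value on the single untreated array cannot be told apart. EXOC6, a subunit of the exocyst, was at 5.07, 4.95, 5.28 and 5.66, against 4.35 untreated. In REPIN1, MLPH and EXOC6, as in TXLNA, the untreated array was the lowest of the 12 arrays. There too, a shift shared by the erlotinib arrays and a low untreated value cannot be told apart.

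On the lower side, POLR3G, a subunit of RNA polymerase III, averaged 0.81 below (difference -0.81 ± 0.17, SE), with 5.62, 5.30, 5.16 and 4.72, against 6.01 untreated. FSTL3, a secreted antagonist of activin, was at 6.20, 6.03, 5.51 and 5.28, against 6.52 untreated, and TMEM158, a transmembrane protein induced by RAS, at 7.93, 7.68, 7.18 and 6.91, against 8.14 untreated. All 4 erlotinib arrays were below the untreated one in these 3 genes, and the untreated array was the highest of the 12 arrays. A shift shared by the erlotinib arrays and a high untreated value cannot be told apart. At 3 or more of the 4 times, 2 genes (0.0344%) were at least 2-fold higher and 2 (0.0344%) at least 2-fold lower. CYP1A1, the xenobiotic oxidase controlled by the aryl hydrocarbon receptor, was at 4.69, 4.25, 5.45 and 4.90, against 3.60 untreated, and NRSN2-AS1, an antisense RNA, at 6.28, 5.76, 6.31 and 6.25, against 5.14 untreated. CYP1A1 was below 5 on the untreated array and on 3 of the erlotinib arrays. It averaged 4.82 on the erlotinib arrays and passed the filter through the arms with quinacrine. The lower pair were the small RNA genes RN5S60 (6.87, 5.27, 5.81 and 5.85, against 7.35 untreated) and SNORD69 (6.29, 5.40, 5.00 and 5.61, against 6.61 untreated). The same limit holds for both pairs, since the untreated array was the lowest of the 12 for the higher pair and the highest for the lower pair.

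Whether the erlotinib trend differed from that with quinacrine added was tested over the 11 treated arrays. By limma, 6 genes (0.103%) passed with a lower slope in erlotinib than in the combination and 0 (0%) with a higher one, with 783 lower and 102 higher at an unadjusted p under 0.05. The median slope difference of all genes was -0.074. These 6 calls, with adjusted p of 0.0492 or 0.0493, were lost in most alternatives: 0 passed with arrays centred on their medians, and 0 passed without any 1 array, except that 109 passed without the combination 12 h array. The combination 6 h array stood furthest from the other arrays, with an interquartile range of 2.04 and a median of 6.18 over the genes kept, against 6.54 to 6.55 on the other combination arrays.

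F3 was at 6.85, 6.55, 5.89 and 5.63 over the erlotinib times, against 7.30, 7.51, 7.71 and 8.04 in the combination. The slope difference was -0.67 ± 0.09 (SE, limma adjusted p = 0.0492), and the arms did not overlap. NFKB2 was at 6.87, 6.54, 6.27 and 5.75 with erlotinib, against 6.53, 6.81, 6.97 and 7.25 in the combination, a difference of -0.60 ± 0.08 (limma adjusted p = 0.0492). VCAN, the matrix proteoglycan versican, was at 5.13, 5.11, 5.00 and 4.46, against 4.40, 5.03, 5.37 and 6.25 in the combination (-0.80 ± 0.11, limma adjusted p = 0.0492). In NFKB2 and VCAN the combination was below erlotinib at 6 h and above it at 24 and 48 h. CCN3, a matricellular protein also called NOV, was at 4.97, 5.08, 4.75 and 4.67, against 5.31, 5.99, 6.40 and 7.23 in the combination (-0.74 ± 0.10, limma adjusted p = 0.0492). DNER, a transmembrane ligand of Notch, was at 5.37, 5.03, 5.02 and 4.81, against 4.60, 5.35, 5.72 and 6.34 in the combination (-0.73 ± 0.09, limma adjusted p = 0.0492). RNF223, a RING finger protein, was at 6.30, 5.91, 5.18 and 5.43, against 4.07, 5.51, 5.65 and 6.71 in the combination (-1.14 ± 0.16, limma adjusted p = 0.0493). CCN3 and VCAN averaged under 5 on the erlotinib arrays and passed the filter through the arms with quinacrine, and with no filter 0 genes were called. Over the alternatives on the log2 time scale each difference kept its sign, for example between -0.72 and -0.58 for F3 and between -1.37 and -0.93 for RNF223.

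**Figure D5:**
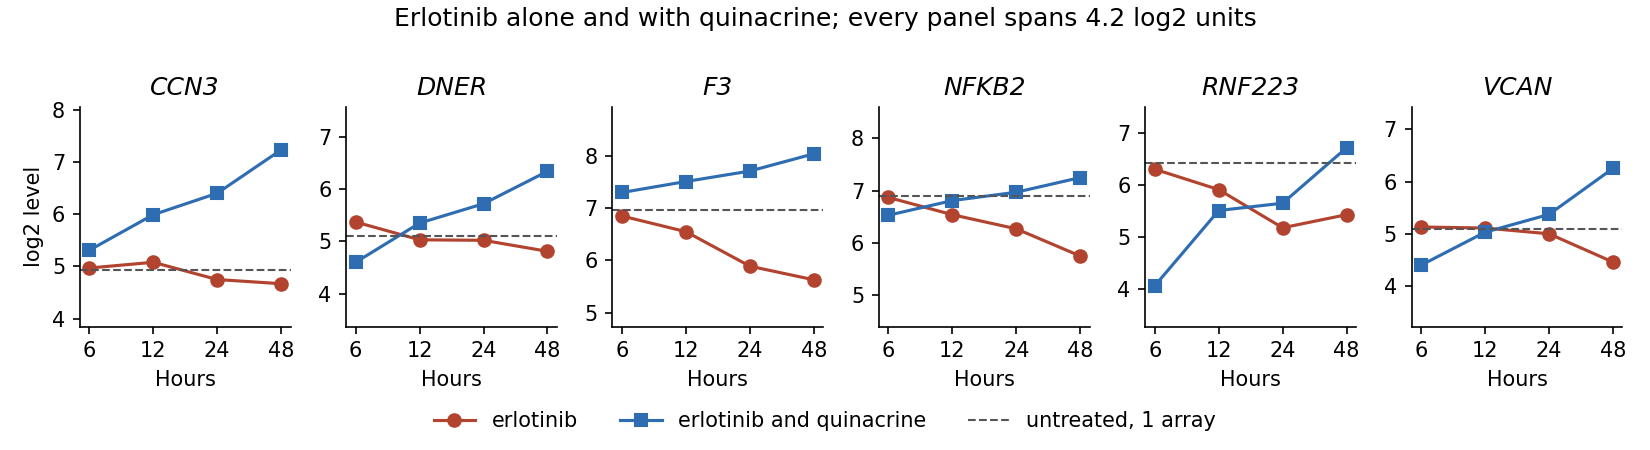
log2 level (vertical axes) by hours (horizontal axes) of the 6 genes with a lower slope in erlotinib (red circles) than in the combination with quinacrine (blue squares), with the untreated array as a dashed line. At 48 h every erlotinib point is below the dashed line and every combination point above it.

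The promoter windows of 2 genes whose trends with erlotinib and with the combination ran apart are shown because they hold sites of inducible factors. TNFAIP3, at 7.41, 6.56, 5.53 and 5.76 with erlotinib, against 7.53, 7.52, 8.14 and 8.70 in the combination, did not pass the slope difference test (-1.01 ± 0.18, limma adjusted p = 0.104). Capitals mark kappaB sites in TNFAIP3 (chr6:137867009-137867308, plus strand) and AP-1 sites, TGANTCA, in F3 (chr1:94541710-94542009, minus strand), on either strand, in RefSeq windows of build GRCh38.p14.
TNFAIP3: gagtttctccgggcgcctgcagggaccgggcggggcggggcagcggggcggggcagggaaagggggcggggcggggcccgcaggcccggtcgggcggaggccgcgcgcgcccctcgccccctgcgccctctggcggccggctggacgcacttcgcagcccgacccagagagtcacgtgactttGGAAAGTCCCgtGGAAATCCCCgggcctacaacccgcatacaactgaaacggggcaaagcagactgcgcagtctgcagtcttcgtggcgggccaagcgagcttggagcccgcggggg
F3: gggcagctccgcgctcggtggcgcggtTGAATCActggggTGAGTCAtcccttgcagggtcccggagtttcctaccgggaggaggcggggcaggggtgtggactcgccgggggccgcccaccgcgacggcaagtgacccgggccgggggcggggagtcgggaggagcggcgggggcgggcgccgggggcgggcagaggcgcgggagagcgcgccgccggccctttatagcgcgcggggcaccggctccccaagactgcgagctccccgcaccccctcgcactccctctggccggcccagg
Each window held 2 matches. Of 11 NF-kappaB target genes with a window, 6 held a kappaB site, compared with 12.8% of the windows of genes kept. Of 13 YAP and TEAD target genes with a window, 1 (F3) held an AP-1 site, beside 3.75% of the windows of genes kept, and 5 held the TEAD core GGAATG, beside 10.6%.

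Against quinacrine alone, which has no 48 h array, 0 genes (0%) passed a difference in slope in either direction by limma, with a smallest adjusted p of 0.106. At an unadjusted p under 0.05, 57 genes had a higher and 390 a lower slope in erlotinib. DSN1, a kinetochore protein, had the smallest p, at 7.23, 7.14, 6.94 and 6.99 over the erlotinib times.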

How the data were processed

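Total RNA of NCI-H1975 cells was hybridised to Affymetrix whole-transcript arrays. Per the submitters' processing notes, the authors used Affymetrix Expression Console 1.30 with RMA, and per the series design text this covered background correction, quantile normalization, log2 transformation and hg19 probe set annotation. The deposited log2 values of the table were used with no further normalization, and 0 columns were left unmapped. Quantile normalization gives the arrays similar distributions, so a global shift in RNA would not be seen.

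Of 53617 rows, 23871 had 1 symbol in the platform annotation, 1842 had several and 27904 none, and only the first kind was named. RefSeq matched 22569 rows by Entrez ID and updated 90 symbols. Where a gene had several rows (632 genes), the row with the highest mean was used. Genes with a mean over 12 arrays of at least 5 were kept (5820, or 26.0%).

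Slopes and levels were fitted with limma 3.58.1 in R 4.3.3 (lmFit and eBayes) on the 5 arrays, with a term for the untreated array and a slope on log2 hours in the erlotinib arm. Slope differences between arms came from the 11 treated arrays, with 5 residual degrees of freedom. Tests were two-sided, with Benjamini-Hochberg adjustment over all genes kept and a threshold of 0.05. On simulated arrays with 200 of 5820 genes changed, the slope test called 66% of genes with a slope of 0.5 and 96% with a slope of 1. The level test called 28% of genes changed by 1 log2 unit and 96% by 2. The combination slope test called 34% at 0.5 and 92% at 1, and the quinacrine slope test 0% at 0.5 and 72% at 1. With no gene changed, 0 genes were called. The simulated noise was independent for each gene and array, with no array-wide departure such as that of the erlotinib 12 h array. These shares may therefore not hold for the measured arrays, where DHRS3 (slope 1.05) and GDF15 (slope 0.95) did not pass the slope test.

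The members and gene lists were chosen with earlier results of these data known. Genes were named by rule: genes past the threshold (up to 12 each way, by size) or, where under 3 passed, the 6 with the smallest p in each direction, for each slope difference the 6 with the smallest p in each direction, the 6 furthest above and below the untreated array at each time, those at least 2-fold away at 3 or more times, list members at least 2-fold away at any time or otherwise up to 3 with the smallest slope p, and a set list with EGFR, ERK, NF-kappaB, cell cycle and FACT genes. Alternatives covered the filter, the rows used, median centring, cyclic loess, the prior variance, the time scale, the arrays in the fit and the fold threshold.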

Additional observations from a re-analysis of the deposited data

Results flagged for a closer look

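Slopes over time that differed between erlotinib and the combination by limma's test of the difference, adjusted over 5820 genes, were found for 6 genes, all lower in erlotinib. The slope of F3 was -0.43 in erlotinib and 0.24 in the combination, a difference of -0.67 log2 units per doubling of time. NFKB2 had -0.36 in erlotinib and 0.23 in the combination, a difference of -0.60. VCAN had -0.21 in erlotinib and 0.59 in the combination, a difference of -0.80. For CCN3 the difference was -0.74, with -0.12 in erlotinib and 0.62 in the combination. For DNER it was -0.73, with -0.17 in erlotinib and 0.56 in the combination, and for RNF223 -1.14, with -0.33 in erlotinib and 0.81 in the combination. The erlotinib slope was -0.07 for VCAN and -0.56 for RNF223 without the 48 h array, and -0.11 for DNER without the 6 h array. Depending on the gene, 3 or 4 of 21 or 22 alternatives kept the call, and the highest adjusted p by limma was 0.428 for 5 of the genes and 0.418 for RNF223.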

How the results depend on the processing

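For the slope within the erlotinib arm, 0 genes passed in either direction except with an intensity trend in the prior variance (2 up, GDF15 and CD79A, and 4 down, CCN1, GLIPR1, SNAI2 and THBS1), in the fit of 11 treated arrays (2 down, CCN1 and GLIPR1) and without single arrays (0 to 2 up and 0 to 2 down, the 2 and 2 without the erlotinib 12 h array). For the level against untreated, leaving out single arrays gave 0 to 2 genes up (GDF15 and DHRS3 without the erlotinib 12 h array) and 0 down. For erlotinib minus combination, 6 genes lower became 0 with no filter, with all rows, with centred arrays, with cyclic loess, with linear hours and with the 8 arrays of these arms. Likewise 0 were lower in the 3 alternatives added after seeing the data, namely centred arrays without the combination 6 h array, no combination 6 h or erlotinib 12 h array, and the slope of differences between arrays paired by time, which the labels do not tie to a shared culture. An intensity trend gave 21 lower and 1 higher. Without single arrays 0 to 109 were lower and 0 to 1 higher, the 109 and the 1 without the combination 12 h array. For erlotinib minus quinacrine, 1 gene was lower (DSN1) with a mean of at least 6. The cause of these shifts was not tested. The counts at least 2-fold from untreated at 6, 12, 24 and 48 h changed to 97, 214, 163 and 393 higher and 117, 378, 207 and 200 lower with no filter. With a mean of at least 6 they were 1, 0, 8 and 28 higher and 0, 9, 9 and 20 lower. At 1.5-fold they were 90, 66, 181 and 421 higher and 16, 275, 134 and 178 lower, and with cyclic loess 1 gene was higher at 6 h. The slope of LIPH was -0.02 without the erlotinib 48 h array and positive under the other alternatives, up to 0.74 without the 6 h array. Replicates could not be used as pairs, since the labels give none. The filter leaves out genes with low signal, and with 1 array per condition no replicate error could be measured.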

Other observations

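Some genes outside the rule for named genes, chosen after their values were seen, had late differences of similar size. TNFRSF9, the costimulatory receptor 4-1BB, was at 6.17, 5.97, 4.74 and 4.58 at 6, 12, 24 and 48 h of erlotinib, against 6.01 untreated. SEMA3C, a secreted semaphorin, was at 7.90, 7.72, 6.74 and 6.49, against 7.86 untreated, and LAMB3, a laminin chain of the basement membrane, at 9.40, 9.11, 8.82 and 8.41, against 9.51 untreated. CRABP2, which carries retinoic acid to its nuclear receptor, was at 7.01, 6.97, 7.53 and 8.07, against 7.05 untreated. STING1, the adaptor of cytosolic DNA sensing, was at 5.37, 5.52, 5.74 and 6.37, against 5.18 untreated. HDAC5, a class II histone deacetylase, was at 4.49, 3.49, 5.27 and 6.10, against 4.51 untreated. None of these 6 slopes passed limma's adjusted threshold, and the values are given as a description.

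Further gene groups are given by their counts. Of 14 autophagy genes, 13 were above the untreated level at 48 h, beside 57.8% of all genes, with a median difference of 0.385, beside 0.06. Their median slope was 0.041, and -0.003 without the 48 h array. WIPI1, which binds autophagosome membranes, was at 6.20, 5.88, 6.58 and 7.11, against 6.09 untreated. Of 14 cholesterol synthesis genes, 10 had a slope above 0 (median 0.05), but without the 48 h array 5 did (median -0.043). Of 18 ER chaperones and unfolded protein response genes, 5 had a slope above 0 (median -0.025, and -0.055 without the 48 h array).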
